A study of Mus musculus with 21 samples.

Results

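The comparison described here covers the interval from 12 h to 24 h after an isotype control was given to macrophages, across all genes. It sets 3 libraries of cells given the isotype control for 24 h against 3 libraries of cells given it for 12 h. The libraries were chosen by their titles, 6 of the 21 libraries in the series, and 13468 of the 23250 genes in the deposited table had enough counts to be tested. The cells were bone-marrow-derived macrophages of C57BL/6J background, grown for 7 days in medium with 2.5% supernatant of cells that produce GM-CSF, a growth factor that turns marrow precursors into macrophage-like and dendritic-like cells. The series describes all its macrophages as lacking the mannose receptor (gene Mrc1) and asks what the soluble receptor does to them. The other groups, also of 3 libraries each, were untreated cells (0 h), cells given isotype for 4 h, and cells given FcMR, a fusion of the Fc part of human IgG1 with the extracellular part of the mannose receptor, for 4, 12 or 24 h. The labels do not say which protein the isotype control was, whether libraries came from separate mice, or how the allele was made, and no untreated cells of 12 h or 24 h were analysed here. Time since addition, time in culture and harvest therefore cannot be told apart. The p-values rest on a spread within groups estimated over all 21 libraries, not over the 6 compared alone, and that spread may be technical.

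As background, a stimulated macrophage first switches on genes through NF-kB and through type I interferon, which the cell secretes and which acts back on it through its receptor and the factor ISGF3 to raise a large set of antiviral genes. Feedback proteins such as IkB-alpha, A20 and SOCS1, themselves products of the same pathways, then shut the signals down, and short-lived messenger RNAs such as those of cytokines are the first to be lost. Cells leaving this state may also change their receptors for chemoattractants, immune complexes and dead cells, and their lysosomes.

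The 12 h libraries held 6676302 to 66729533 counts and the 24 h libraries 7402006 to 9556249, so that 3 counts corresponded to 0.045 to 0.449 CPM, the share of a library's counts scaled to a common total. The correlation between replicates across genes was r = 0.979 to 0.987 (log2 CPM), and each pair differed by more than counting noise (chi-square per degree of freedom 3.09 to 17.4). Mrc1 (chromosome 2, 14229392 to 14332057) had 0 to 10 counts per library and did not pass the filter on low counts. Its highest level was 0.628 CPM (95% exact interval 0.23 to 1.37) in 24 h replicate 1. The sum of 8 macrophage markers was 23300 to 25800 CPM at 12 h and 33200 to 37600 CPM at 24 h. Most of it was Lyz2, lysozyme (means of 20600 and 28200 CPM); Adgre1, Fcgr1 and Itgam were also called higher, Csf1r lower, and Cd68, Mertk and C1qa were not called. Ptprc, the leukocyte phosphatase CD45, was level at 630 to 676 and 620 to 661 CPM. Sums of some markers of other cells were lower at 24 h. The 10 neutrophil markers were at 302 to 398 against 196 to 236 CPM, mostly S100a8 and S100a9. Both were called lower, as was Camp, but Ltf was called higher (log2 0.85). Ly6g, Elane and Retnlg were under 1 CPM in all 6 libraries. The 5 eosinophil markers were at 197 to 302 against 102 to 144 CPM (Epx and Prg2 called lower, Siglecf at 0.00 and Il5ra at 0.26 on the log2 scale). The 8 markers of conventional dendritic cells were at 3030 to 3180 against 2190 to 2350 CPM, with H2-Ab1 at means of 1290 and 655 CPM. Mast cell and basophil (19.2 to 24.3 against 12.4 to 14.5 CPM), endothelial, stromal and erythroid sums were lower too. The sum of 5 megakaryocyte markers was higher, at 76.8 to 86 against 91.9 to 122 CPM, but none of them was called higher. Of these, Itga2b was called lower (log2 -1.36), Pf4 (0.50) and Ppbp (0.26) were not called, and Gp9 and Gp1bb were under 1 CPM. The monocyte (430 to 527 and 446 to 507 CPM), B cell and osteoclast sums overlapped. T and NK cell markers summed to 2.4 to 4.99 and 3.33 to 4.81 CPM, with Cd3e, Cd3g, Trac and Trbc1 under 1 CPM. In bulk RNA, fewer cells of a type and less RNA per cell cannot be told apart.

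The libraries of the 2 times also differed in the tilt of their counts with transcript GC content. This tilt, the mean log2 level of the 10% most GC-rich genes minus that of the 10% most GC-poor, each relative to all libraries, was 0.588, 0.81 and 0.821 at 12 h and -0.1, -0.0525 and -0.0791 at 24 h, with no overlap. The GC-richest 10% of genes (at least 57.3% GC) differed by a median of -0.68 on the log2 scale, 24 h minus 12 h, and the GC-poorest 10% (at most 40.8%) by 0.12. A fit with a smooth GC correction for each library brought these medians to -0.04 and -0.01. GC-corrected values are given beside each group of genes below. The tilt and the time of harvest cannot be told apart in these 6 libraries.

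**Figure D1:**
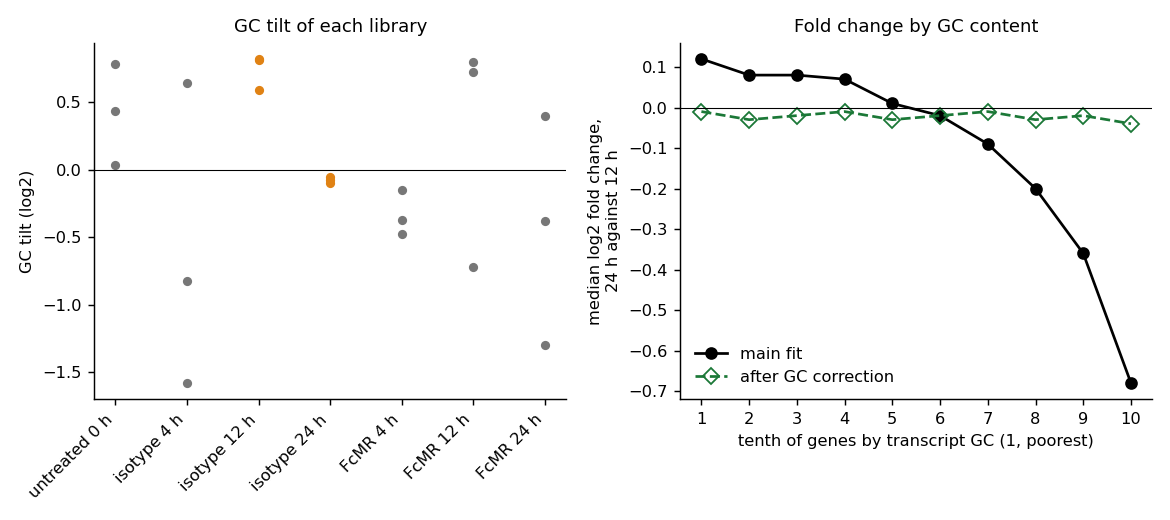
Left, GC tilt (log2) of each of the 21 libraries by group, with the 6 libraries compared in orange: all isotype 12 h points lie above all isotype 24 h points, while the other groups spread more widely within themselves. Right, median log2 fold change at 24 h against 12 h in 10 equal bins of genes by transcript GC content, which falls to -0.68 in the richest bin in the uncorrected fit and stays near 0 after GC correction.

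Between 12 h and 24 h, interferon-stimulated and NF-kB target genes and the antigen-presentation genes came down in the isotype cells, while part of the chemoattractant, Fc and uptake receptors, of the lysosomal hydrolases and of the lipid-handling genes went up. Of the 13468 genes tested, 2247 (16.7%) passed an adjusted p of 0.05 in edgeR's quasi-likelihood test, 969 higher (7.19%) and 1278 lower (9.49%) at 24 h. Most changes were moderate: the median size among called genes was 0.74 on the log2 scale, 747 genes changed by over 2-fold (249 higher, 498 lower) and 140 by over 4-fold (35 higher, 105 lower). The 3 libraries of one time did not overlap those of the other for 7200 genes (53.5%). With the GC correction 3396 genes were called (25.2%; 1552 higher, 1844 lower), among them 2052 of the 2247 in the same direction and 0 in the opposite one. The split by direction depended on scaling: higher genes were 43.1% of the calls, but 53.4% with RLE in place of TMM factors (1220 higher, 9.06%, and 1065 lower, 7.91%), 52.3% in DESeq2 and 54.9% on counts thinned to equal totals. A fit of the 6 libraries alone, which takes its spread from them only, called 5794 genes. Leaving out 12 h replicate 2 or 3, or 24 h replicate 1 or 2, left 1458, 1401, 1402 and 1444 genes called.

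**Figure D2:**
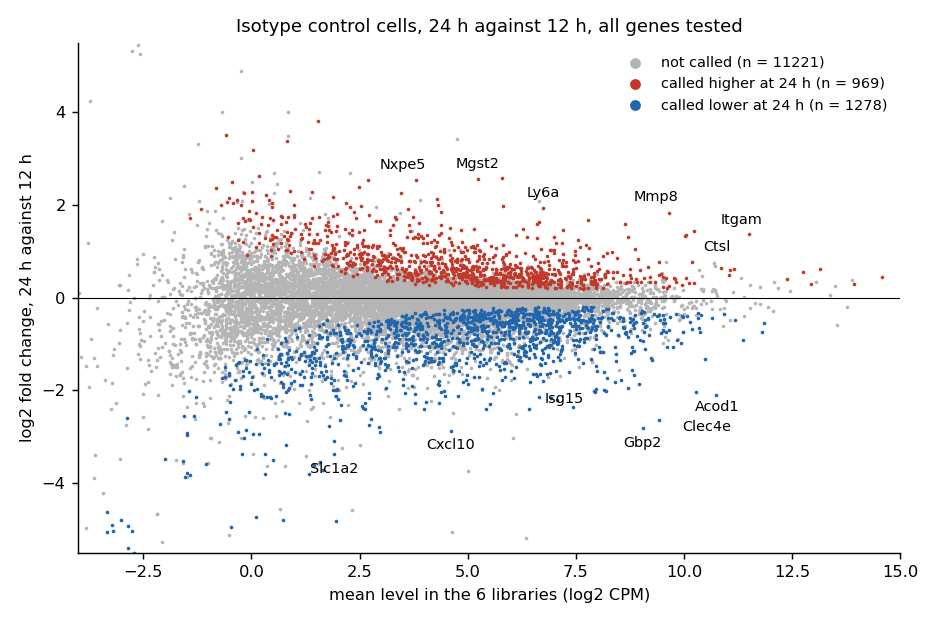
Log2 fold change at 24 h against 12 h in isotype cells (vertical) by mean level in the 6 libraries (horizontal, log2 CPM) for the genes tested. The 969 genes called higher are red, the 1278 called lower blue, and 12 genes described in the text are labelled; 74 genes lie outside the axes.

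The interferon-stimulated genes moved down almost as a block. Of 40 such genes tested, 35 were called lower and 0 higher, with a median log2 difference of -1.05 beside -0.05 over all genes tested; after GC correction 38 were lower, median -1.01. Gbp2 (ENSMUSG00000028270.12, chromosome 3, 142620602 to 142638008), a guanylate-binding protein that attacks the vacuoles of intracellular microbes, stood at 866, 963 and 946 CPM at 12 h and 131, 134 and 135 CPM at 24 h. That is a 6.95-fold fall (log2 -2.80 ± 0.15 SE, adjusted p = 2.99e-09), and the groups lie far apart. Cxcl10, the chemokine that draws activated T cells, fell by 2.87 on the log2 scale, from 46.8, 43.4 and 39.2 CPM to 5.69, 5.68 and 6.31 CPM. Ifit1 (chromosome 19, 34640871 to 34650009), which binds viral RNA lacking cap methylation, was at 397, 387 and 402 CPM and then at 108, 92.2 and 105 CPM (log2 -1.96 ± 0.17, adjusted p = 4.34e-07). Isg15, the ubiquitin-like modifier, went from 424, 432 and 496 to 117, 104 and 121 CPM (log2 -1.98). Rsad2 (viperin), at 776 to 787 CPM, dropped to 188 to 228 CPM.

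The fall was not of equal size over the group. Among the transcription factors that drive these genes, Stat2 fell by 0.46, from 272 to 286 down to 189 to 209 CPM, and Irf9 by 0.41. Irf7, the amplifier of type I interferon, was at 448 to 529 and then 292 to 337 CPM, a log2 difference of -0.62 that did not pass the test (adjusted p = 0.117; 0.0147 after GC correction). The oligoadenylate synthetases were similarly mild, with Oas1a at -0.67 and Oasl2 at -0.51 called lower, and Oas3 at -0.60 and Oas2 at -0.22 not called; these genes and the Gbp and Ifi20x genes have close copies, so single members are less certain. At 24 h the list's median was still above that of untreated cells. The median log2 difference of the 40 genes from untreated was 3.53 at 12 h and 2.14 at 24 h. Ifit1, at a mean of 23.2 CPM untreated, 1000 CPM at 4 h, 395 CPM at 12 h and 102 CPM at 24 h, is an example. Cxcl10 is an exception, at 5.89 CPM at 24 h against 43.2 CPM at 12 h and 33.7 CPM untreated.

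Promoters of some members with large falls are shown, because many promoters of the list hold the element through which ISGF3 and IRF factors are known to act. The sequences are upstream stretches from RefSeq (build GRCm38.p6), written 5′ to 3′ on the gene's strand in lower case, with capitals for every match to GAAANNGAA, the core of the interferon-stimulated response element, on either strand; overlapping matches run together.
Ifit1 (chr19:34640760-34640833): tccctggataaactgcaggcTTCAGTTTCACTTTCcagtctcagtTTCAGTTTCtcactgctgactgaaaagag
Isg15 (chr4:156200856-156200916, minus strand): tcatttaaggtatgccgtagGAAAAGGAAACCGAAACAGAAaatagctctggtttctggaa
Gbp2 (chr3:142620585-142620633): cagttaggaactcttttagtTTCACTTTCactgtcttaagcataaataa
Gbp3 (chr3:142559980-142560034): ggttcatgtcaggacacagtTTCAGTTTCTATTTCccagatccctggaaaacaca
Cxcl10 (chr5:92349074-92349122, minus strand): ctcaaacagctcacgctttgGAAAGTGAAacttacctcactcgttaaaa
Rsad2 (chr12:26456543-26456591, minus strand): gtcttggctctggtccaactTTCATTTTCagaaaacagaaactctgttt
In these stretches Ifit1 and Isg15 each hold 3 matches, Gbp3 holds 2 and the others 1. Upstream refers to the RefSeq start. The match of Gbp2 lies inside the gene span given above, which comes from GENCODE and begins farther upstream. Members with smaller differences held matches too, such as Ddx60 (2 matches, log2 -0.38) and Oas1a (2 matches, -0.67), whose stretches are not shown. The core was found in 21 of the 30 interferon-stimulated genes with a promoter in the table (70.0%), beside 8.57% of all 27025 promoters of the same length (250 bases before to 50 after the start). It was in 11.3% of the genes called lower and 9.77% of those called higher, beside 7.75% of the genes tested that had a promoter. A match describes these letters only and shows no binding.

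The NF-kB and pro-inflammatory genes also fell. Of 30, 20 were called lower and 0 higher (median log2 -1.10; 20 lower, median -0.82, after GC correction). Tnf, the early alarm cytokine, stood at 141, 147 and 149 CPM at 12 h and 42.4, 46.3 and 50.6 CPM at 24 h (log2 -1.65 ± 0.11, adjusted p = 1.71e-08). The neutrophil-attracting chemokines fell more: Cxcl1 by 2.75, from 7.12, 9.1 and 17.9 to 1.08, 1.39 and 2.96 CPM, and Cxcl2 by 2.29, from 58.2, 85.1 and 83.9 to 13.8, 14.8 and 17.8 CPM. The groups do not overlap for any of these, which with 24 h lower held for 32.2% of all genes tested. Ptgs2, the inducible cyclooxygenase, fell by 2.24 on the log2 scale, from a mean of 27 to 5.71 CPM.

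The interleukins moved less. Il6 went from 12.2 to 14 CPM down to 5.49 to 7.08 CPM (log2 -1.07 ± 0.25, adjusted p = 0.00714), and Il1b from 145 to 158 down to 83.3 to 100 CPM (log2 -0.71 ± 0.14). Il12b, the shared subunit of IL-12 and IL-23, was not called, at 82.3 to 103 and 68.2 to 88 CPM. Ccl2, which attracts monocytes, overlapped fully between the times, at 85.6, 61.5 and 40.2 CPM and then 76.7, 67.3 and 41.1 CPM (log2 -0.01). Neither was Ccl5 called, at 721 to 942 and 548 to 664 CPM (adjusted p = 0.253). The NF-kB subunits themselves went down: Nfkb2 by 1.28, Relb by 1.13 and Nfkb1 by 0.79, while Rel differed by 0.10 and was not called. Relative to untreated cells the median of the list was 0.44 at 12 h and -0.68 at 24 h. Tnf for one was at a mean of 160 CPM untreated, 1060 CPM at 4 h, 145 CPM at 12 h and 46.4 CPM at 24 h.

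The feedback inhibitors of these pathways fell together with their targets: 15 of 22 were called lower and 0 higher, with a median log2 of -0.99 (17 lower, median -0.62, after GC correction). Nfkbia, which encodes IkB-alpha, went from 148, 163 and 170 to 61.4, 59.7 and 61 CPM (log2 -1.40 ± 0.18). Socs1, the inhibitor of interferon receptor signalling, was at 9.42, 10.7 and 15 and then at 1.37, 2.25 and 2.19 CPM (log2 -2.62 ± 0.61, adjusted p = 0.00654). Zfp36, which drives decay of cytokine messages, fell by 1.07. Tnfaip3, which encodes A20, fell by only 0.46, from 197 to 209 down to 140 to 156 CPM. Il1rn, the IL-1 receptor antagonist (1190 to 1300 and 1060 to 1080 CPM), and Atf3 (means of 458 and 461 CPM) were not called. Il10 had 9, 5 and 44 counts at 12 h and 1, 0 and 1 counts at 24 h, so its 24 h level is at the limit of 3 counts.

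**Figure D3:**
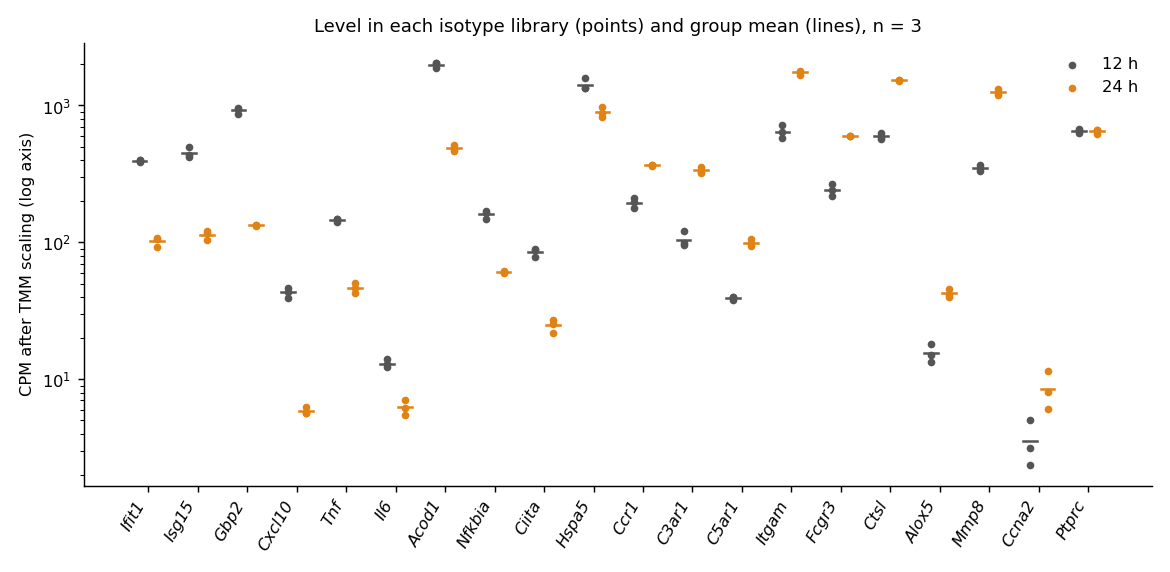
Levels of 20 genes in each isotype library (points, CPM after TMM scaling on a log axis) with the mean of each group of 3 (lines), 12 h in grey and 24 h in orange. The 12 h and 24 h points are apart in the genes shown except Ptprc.

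Enzymes that supply inflammatory mediators changed in both directions. Of 19 genes for arginine, nitric oxide, itaconate and eicosanoid metabolism, 8 were called higher and 6 lower (7 and 5 after GC correction; 5 higher without any 1 of the 6 libraries). Acod1 (chromosome 14, 103046977 to 103056573), which makes itaconate, fell 4.08-fold, from 1880, 2050 and 2040 to 480, 466 and 518 CPM (log2 -2.03 ± 0.09, adjusted p = 2.47e-10). Nos2, the inducible nitric oxide synthase, fell by 2.37, and its arginine importer Slc7a2 by 1.67, from 660 to 733 down to 197 to 259 CPM. Gch1, needed for the synthase's cofactor, fell from a mean of 82.5 to 41.4 CPM. Ptges, which acts with the inducible cyclooxygenase to make prostaglandin E2, fell by 2.02.

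Other genes of eicosanoid synthesis rose. Alox5, the 5-lipoxygenase, went from 18.1, 15 and 13.4 to 45.8, 41.6 and 39.6 CPM (log2 1.45 ± 0.22, adjusted p = 0.000149). Its partner Alox5ap rose by 0.97, from 178 to 214 up to 380 to 401 CPM. Ptgs1, the constitutive cyclooxygenase, rose by 1.08, from 29.5 to 36.4 up to 67.6 to 70.8 CPM. Mgst2 (chromosome 3, 51660360 to 51682677), a membrane glutathione transferase that can make leukotriene C4, rose 5.85-fold, from 10.4, 11.3 and 11.3 to 59.7, 65.6 and 67.6 CPM (adjusted p = 2.47e-10), the same adjusted p as Acod1. Lta4h, which makes leukotriene B4, rose by 0.21, while Ltc4s, the main leukotriene C4 synthase, had means of 6.54 and 2.66 CPM and was not called. Arg1, arginase 1, rose by 1.63 from a low level, 2.41, 1.32 and 1.33 to 7.36, 4.61 and 3.6 CPM.

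Antigen presentation fell in both classes. Of 22 class I and immunoproteasome genes 15 were called lower and 0 higher (median log2 -0.83; 17 lower, median -0.66, after GC correction), and of 16 class II genes 10 were lower and 1 higher (median -0.66; 11 and 1, median -0.47). Psmb10, an immunoproteasome subunit, was at 198, 218 and 248 and then at 50.3, 44.5 and 49.6 CPM (log2 -2.20 ± 0.55, adjusted p = 0.0101). The peptide transporter and its tapasin bridge fell with it: Tap1 by 1.19, Tap2 by 1.65, and Tapbp by 1.35, from 817 to 931 down to 336 to 359 CPM. The class I molecules themselves were less moved. H2-K1 was at 2050 to 2580 and 1480 to 1560 CPM (log2 -0.61, adjusted p = 0.0829), H2-D1 at 2700 to 3400 and 2270 to 2410 CPM (adjusted p = 0.382), and B2m at 3980 to 4540 and 4740 to 5170 CPM (log2 0.22, adjusted p = 0.1). Class I heavy chains are near copies of one another, so reads may be split between them.

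Ciita, the master regulator of class II, went from 88.4, 89.8 and 78.3 to 21.8, 27.2 and 25.4 CPM (log2 -1.78 ± 0.24, adjusted p = 4.87e-05), the largest fall of the class II list. The class II chains followed, with H2-Ab1 lower by 0.98 and H2-Eb1 by 0.73, and the invariant chain Cd74 by 0.73, from 4240 to 4630 down to 2640 to 2740 CPM. GC correction made these smaller: -0.52 for H2-Ab1 and -0.35 for Cd74. Ctss, the protease that trims the invariant chain, was the member that rose, from 5270 to 6180 up to 7740 to 8790 CPM (log2 0.56). Leaving out 12 h replicate 2, or 24 h replicate 1 or 3, left 6 class II genes called lower. The sum of the dendritic cell markers, which includes H2-Ab1, moved in the same direction: of its 8 genes, Zbtb46 (-0.35) and H2-Ab1 were called lower and Clec9a (1.13) higher. The part of these cells in the class II result was not tested.

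Costimulatory ligands fell as well, with 10 of 15 called lower and 2 higher (median log2 -0.55; 9 and 3 after GC correction). Cd40 went from 149, 184 and 160 to 33, 41.1 and 36.9 CPM (log2 -2.15 ± 0.20), Tnfsf15 fell by 1.78 and Icosl by 1.37. The genes that rose are inhibitory receptors or ligands. Vsir, which encodes VISTA, went from 105 to 120 up to 251 to 276 CPM (log2 1.24 ± 0.19) and Havcr2, which encodes TIM-3, from 23.2 to 25.2 up to 42.1 to 50 CPM (log2 0.98). Cd274, the PD-L1 gene, was lower by 0.55 and Cd86 by 0.53, while Cd80 was not called (log2 0.41).

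Receptors for chemoattractants changed in both directions, more of them upward. Of 16, 8 were called higher and 4 lower (median log2 0.46; 8 and 5, median 0.35, after GC correction). C3ar1, the receptor for complement fragment C3a, went from 121, 98.4 and 95.3 to 356, 329 and 323 CPM (log2 1.68 ± 0.15, adjusted p = 4.47e-07), and C5ar1 from 40.2, 39.8 and 37.7 to 106, 99.7 and 93.5 CPM (log2 1.35 ± 0.12). Ltb4r1, the leukotriene B4 receptor, rose by 1.66 to 10.6 to 12.9 CPM. Of the inflammatory CC receptors, Ccr2 rose by 0.98 (29.1 to 56.5 up to 74 to 97.7 CPM, adjusted p = 0.0489) and Ccr1 by 0.91. The receptors that fell were the decoy-like Ccrl2 (-1.46), the formyl peptide receptors Fpr2 (-1.14) and Fpr1 (-0.66), and Ptafr (-0.65), the receptor for platelet-activating factor.

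The Fc and complement group was mixed, with 6 higher and 4 lower of 19 (median log2 0.04; 10 and 4, median 0.25, after GC correction; 2 lower without 24 h replicate 2). All of the 4 activating or inhibitory Fc-gamma receptors in it rose. Fcgr3 went from 267, 242 and 218 to 600, 601 and 597 CPM (log2 1.31 ± 0.14, adjusted p = 4.16e-06), Fcgr4 rose by 1.17, Fcgr1 by 0.68 and the inhibitory Fcgr2b by 0.51. Itgam, the alpha chain of complement receptor 3 (CD11b), rose 2.71-fold from 724, 635 and 577 to 1800, 1680 and 1770 CPM, while its partner chain Itgb2 was level at means of 2670 and 2690 CPM. Among the members that fell were the kinase Syk (-0.58), complement factor B (Cfb, -0.52) and C3 (-0.44). The shared signalling chain Fcer1g was not called (log2 0.18). Itgam and Fcgr1 are also among the 8 macrophage markers whose sum was higher at 24 h; of these, Adgre1 and Lyz2 were called higher too (0.51 and 0.45) and Csf1r lower, and the part of cell composition was not tested.

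Uptake receptors rose more often than they fell, 8 against 3 of 21 (median log2 0.38; 11 and 4 after GC correction). Clec4d, Msr1, Itgb5, Itgav, Cd36 and Clec7a were among the 8. Msr1, scavenger receptor A, went from 499 to 518 up to 827 to 893 CPM (log2 0.77) and Cd36 from 1400 to 1500 up to 2230 to 2330 CPM (log2 0.65). Pros1, a bridging ligand between dead cells and the TAM receptors, rose by 0.84, while the TAM receptor Axl fell by 0.63 and Mertk was not called. Clec4e (Mincle), the receptor for mycobacterial cord factor, fell 6.20-fold, from 1090, 1200 and 1260 to 185, 189 and 199 CPM (log2 -2.63 ± 0.15, adjusted p = 4.67e-09). Its neighbour and partner Clec4d went the other way, from 289 to 329 up to 609 to 678 CPM (log2 1.06).

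The microbial sensors were mixed too, with 6 lower and 2 higher of 24 (median log2 -0.20; 9 and 2, median -0.17, after GC correction). Tlr2, the lipoprotein receptor, fell from 319 to 344 to 122 to 138 CPM (log2 -1.32 ± 0.10), and the cytosolic Nod1 and Nod2 fell by 1.31 and 0.88. The endosomal RNA receptors Tlr8 (log2 1.06, 60.7 to 78.5 up to 132 to 146 CPM) and Tlr13 (log2 0.85) rose. Tlr4 was not called (log2 0.42).

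Lysosomal genes rose in part: 9 of 30 were called higher and 0 lower (median log2 0.14; 13 and 2 after GC correction). Ctsl, cathepsin L, was the largest, from 569, 589 and 631 to 1500, 1540 and 1540 CPM (log2 1.35 ± 0.08, adjusted p = 7.46e-09). Ctsd rose by 0.62, Ctsk by 0.53 and Gusb by 0.48, while the proton pump subunits Atp6v1a and Atp6v0d1 were not called. Tfeb, a transcription factor of lysosomal genes, was lower at 24 h (means of 29.9 and 10.5 CPM) but not called.

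**Figure D4:**
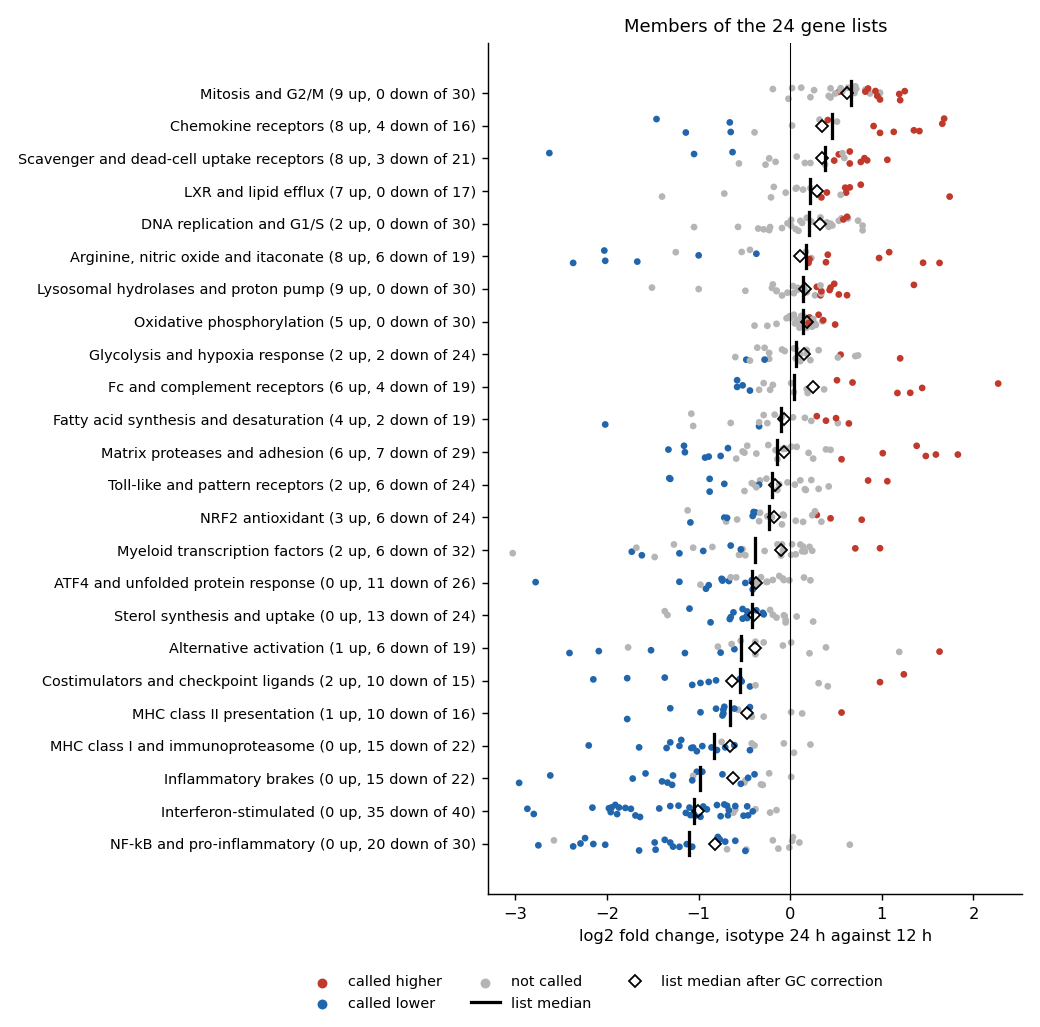
Log2 fold change at 24 h against 12 h of every tested member of the 24 gene lists (points; red, called higher; blue, called lower; grey, not called), ordered by list median (bar), with the median after GC correction (diamond). The interferon-stimulated and NF-kB lists lie farthest to the left with 0 members called higher, and the mitosis and chemokine receptor lists have the highest medians.

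Cholesterol synthesis and uptake genes fell, 13 of 24 with 0 higher (median log2 -0.42; 18 lower and 2 higher after GC correction). The transcription factor Srebf2 went from 182, 202 and 210 to 94.3, 89.1 and 92.7 CPM (log2 -1.10 ± 0.36, and -0.59 after GC correction). Its groups did not overlap, as for the 32.2% of genes tested with 24 h lower throughout. Hmgcs1, an early enzyme of the pathway, fell by 0.48, from 223 to 239 down to 157 to 176 CPM. Without any 1 library other than 12 h replicate 1, only 6 or 7 of the 24 were called. The untreated cells were higher again, with Hmgcs1 at a mean of 737 CPM, and the list's median difference from untreated was -0.69 at 12 h and -1.26 at 24 h.

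Of 17 LXR and lipid-efflux genes, 7 were called higher, 10 not called and 0 lower (median log2 0.22; 9 and 0 after GC correction; 4 higher without 12 h replicate 2 or 24 h replicate 2). Apoc2, the cofactor of lipoprotein lipase, rose by 1.74, from 4.25 to 4.89 up to 13.8 to 16.3 CPM, Fabp4 by 0.77, Fabp5 by 0.61 and Lpl by 0.40. The cholesterol exporters Abca1 (means of 313 and 328 CPM) and Abcg1 (190 and 165 CPM) were not called. Among 19 fatty acid genes 4 rose and 2 fell, but after GC correction 3 rose and 6 fell. Leaving out any 1 library other than 24 h replicate 2 left 2 higher, and 1 was lower in each such fit except that without 12 h replicate 1, with 3. The 4 that rose were the desaturases and elongase Fads1 (0.64), Scd2 (0.50), Elovl5 (0.39) and Scd1 (0.29). Acsl1, the long-chain acyl-CoA synthetase induced in inflammatory macrophages, fell from 465, 486 and 468 to 116, 115 and 120 CPM (log2 -2.02 ± 0.09, adjusted p = 2.47e-10).

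Stress-response genes of the endoplasmic reticulum and the amino acid response fell, 11 of 26 with 0 higher (median log2 -0.42; 12 lower after GC correction). Hspa5, the chaperone BiP, went from 1340, 1350 and 1580 to 877, 824 and 983 CPM (log2 -0.67 ± 0.11). Phgdh, which opens serine synthesis, fell by 2.78 from 15.4, 13.1 and 12.3 to 1.86, 2.57 and 1.42 CPM, and Herpud1 and Slc7a5 fell by 0.89 and 0.92. Atf4 itself was not called (log2 -0.19). Cebpb was called lower (log2 -1.21, adjusted p = 0.0201), but GC correction gave 0.18 (adjusted p = 0.831).

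The antioxidant genes of the NRF2 programme gave 6 lower and 3 higher of 24 (median log2 -0.23), and 6 in each direction after GC correction (median -0.18). The lower count was 2 without 12 h replicate 3, 24 h replicate 1 or 24 h replicate 2, and 3 without 12 h replicate 2 or 24 h replicate 3; the higher count was 1 without 24 h replicate 3. Srxn1 fell from 755, 911 and 1080 to 514, 562 and 591 CPM (log2 -0.72) and Txnrd1 by 0.69, while Gsta3 rose by 0.78. Hmox1 was not called (log2 0.14). Glycolysis and hypoxia genes gave 2 in each direction of 24, close to the background of 16.7% (7 higher and 2 lower after GC correction; 1 to 3 higher and 1 or 2 lower without 1 library). Pdk1, whose product inhibits pyruvate dehydrogenase, the enzyme that turns pyruvate into acetyl-CoA, rose by 1.20 from 16 to 20.7 up to 39.2 to 42.9 CPM. Of 30 oxidative phosphorylation genes 5 were called higher and 0 lower (median log2 0.14; 9 and 0 after GC correction), with Ndufa4 the largest at 0.49. The share called, 16.7%, was that of all genes tested, of which 7.19% were called higher. Only 2 were called without any 1 library other than 12 h replicate 3.

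Of 19 genes of alternative, IL-4-type activation, 6 were called lower and 1, Arg1, higher (median log2 -0.54; 7 and 2 after GC correction). The chemokine genes Ccl17 and Ccl22, whose products recruit CCR4-bearing T cells, fell most. Ccl22 went from 2560, 3110 and 2580 to 610, 697 and 629 CPM (log2 -2.09 ± 0.11, adjusted p = 2.11e-09) and Ccl17 from 129 to 160 down to 22.5 to 30.1 CPM (log2 -2.41). The chitinase-like Chil3 was not called, at 1210 to 1620 and 912 to 1250 CPM.

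Matrix and adhesion genes changed in both directions, 6 higher and 7 lower of 29 (median log2 -0.14; 7 and 9, median -0.07, after GC correction). Mmp8, the collagenase also found in neutrophil granules, went from 366, 352 and 333 to 1190, 1240 and 1310 CPM (log2 1.83 ± 0.17, adjusted p = 1.02e-06). The neutrophil granule markers Camp (log2 -1.77) and S100a9 (-0.96) were lower at 24 h, and Ltf was higher (0.85); their part in the Mmp8 result was not tested. Spp1, osteopontin, rose from 1790, 1580 and 1480 to 4570, 3840 and 4230 CPM (log2 1.38) and Thbs1, thrombospondin 1, from 177 to 230 up to 565 to 614 CPM (log2 1.59). Plau, urokinase, rose by 1.01, while its receptor Plaur fell by 1.16. The adhesion molecules Vcam1 and Itgal fell by 1.33 and 0.89.

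Mitotic genes were higher at 24 h, but this rests on few libraries. Of 30, 9 were called higher and 0 lower (median log2 0.66; 10 higher, median 0.62, after GC correction), and 28 of the 30 differences were positive. Ccna2, cyclin A2, was at 5.05, 2.35 and 3.16 and then at 11.5, 8.04 and 6.05 CPM (log2 1.25 ± 0.34, adjusted p = 0.0186), and Top2a, topoisomerase II, at 17.2, 14.5 and 12.4 and then 36.8, 28.2 and 21.5 CPM (log2 0.98). For Top2a, replicate 1 had the highest and replicate 3 the lowest value of each time. Mki67, the proliferation antigen, overlapped between the times, at 32.1 to 42.6 and 27.7 to 47.2 CPM. No mitotic gene (0) was called without 12 h replicate 3 or without 24 h replicate 1, 1 without 12 h replicate 2, 2 without 24 h replicate 2, 4 without 12 h replicate 1 and 6 without 24 h replicate 3. Of 30 DNA replication genes, Rrm1 (log2 0.62) and Rfc5 (0.58) were called higher and 0 lower, a share near the 7.19% of all genes called higher (5 and 0 after GC correction). Levels remained below the untreated cells for the mitotic list, with a median difference of -1.93 at 12 h and -1.12 at 24 h.

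Among 32 myeloid transcription factors 6 were called lower and 2 higher (median log2 -0.39). The share called higher was near the 7.19% of all genes tested, of which 9.49% were called lower. After GC correction 6 were lower and 4 higher (median -0.10), beside 13.7% and 11.5% of all genes tested (median -0.02). The lower count was 2 without 24 h replicate 1 and 3 without 12 h replicate 3 or 24 h replicate 2, and the higher count was 1 without 12 h replicate 2 or 3 or 24 h replicate 1. Irf5, a driver of inflammatory cytokines, fell from 260 to 281 down to 137 to 141 CPM (log2 -0.95 ± 0.22) and Irf4 by 0.65. Maf rose by 0.71 and Nr4a2 by 0.98. Junb had a large difference, 71.2, 131 and 149 against 12.9, 14.9 and 15.2 CPM (log2 -3.03 ± 1.02), yet missed the threshold (adjusted p = 0.0516; 0.0145 with log2 -2.06 after GC correction). Spi1, which encodes PU.1, was at 296 to 340 and 165 to 185 CPM (log2 -0.85, adjusted p = 0.128). Csf1r, the receptor for M-CSF, fell by 0.39, from 1220 to 1230 down to 917 to 947 CPM, and was not called after GC correction (-0.19, adjusted p = 0.0774).

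The largest changes also involved genes outside these lists. Slc9a9, an endosomal sodium-proton exchanger, rose most among the protein-coding genes with a mean of at least 1 on the log2 CPM scale, from 0.617, 0.147 and 0.318 to 7.85, 3.86 and 4.63 CPM (log2 3.82 ± 0.36, adjusted p = 1.06e-06). It stood at 15.6 CPM in untreated cells. Ly6a (Sca-1) rose from 42.5 to 46.7 up to 162 to 184 CPM (log2 1.93), S1pr1, the receptor for sphingosine 1-phosphate, from 6 to 8.36 up to 30.1 to 32.9 CPM (log2 2.12) and Nxpe5 from 2.35 to 6.06 up to 21.9 to 26.2 CPM (log2 2.53). Both Ly6a and S1pr1 were lower in untreated cells, at means of 4.93 and 2.72 CPM. Fabp7 (2.38), Slc27a6 (2.28), Reps2 (2.26), Olfml3 (2.17), Fat3 (2.05), Rnf150 (2.01) and Nt5e (1.98) were the other named genes of this size, with Mamdc2 (1.47) among the smallest p-values. Nt5e, the ecto-enzyme CD73 that makes adenosine, was at 23.6 CPM untreated, 2.05 to 2.69 CPM at 12 h and 8.75 to 9.81 CPM at 24 h.

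On the falling side, Slc1a2, the glial glutamate transporter, went from 7.8, 6.6 and 6.3 to 0.883, 0.429 and 0.644 CPM (log2 -3.37 ± 0.23, adjusted p = 1.88e-08). The heat shock genes Hspa1b and Hspa1a fell by 4.82 and 3.55, from 4.09, 7.63 and 10.6 and from 3.2, 5.43 and 7.98 CPM at 12 h to at most 0.515 and 0.785 CPM at 24 h; the pair is nearly identical in sequence, so the split between them is uncertain. Cbln1 fell by 3.71, Ppfia3 by 3.80, Plekha4 by 3.61 and Bahcc1 by 3.08, each to under 1 CPM, and the last 3 were smaller after GC correction (-2.98, -2.86 and -2.33). Gm45234 had 0 counts in all 24 h libraries against 114 to 1133 counts at 12 h, which is at least 45.6-fold lower against a level of 3 counts in each 24 h library. Predicted genes such as this, Gm5150 (log2 2.53) and Gm16867 (-2.90), and 45 of the 126 named genes that overlap a gene on the opposite strand, rest on reads that the unstranded library type cannot assign with certainty.

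Cells given FcMR were followed over the same interval, and 3203 genes (23.8%) changed in them between 12 h and 24 h, 1503 higher and 1700 lower. A direct test of the difference between the FcMR and isotype changes called 233 genes (1.73%), 150 with the higher change in FcMR (1.11%) and 83 with the lower (0.616%); after GC correction it called 620, and on libraries thinned to equal totals 129. The FcMR 12 h libraries differed among themselves in GC tilt (-0.722, 0.722 and 0.8), as did those of 24 h (-0.378, -1.3 and 0.398). For most of the interferon-stimulated list the 2 changes were not separated: 1 of 40 members, Gbp2, passed, with -1.41 in FcMR against -2.80 in isotype cells. The medians were -0.89 and -1.05.

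Several of the isotype changes described above were smaller, not called or of the other direction in FcMR cells. Slc1a2 was at means of 107 and 101 CPM at 12 h and 24 h of FcMR, a log2 change of -0.08 against -3.37 (difference 3.29, adjusted p = 4.4e-06). Clec4e was at 4130 and 3330 CPM, a change that was not called (difference 2.32, adjusted p = 8.95e-06). Acsl1 fell by 0.27 with FcMR, from 1390 to 1150 CPM (difference 1.75, adjusted p = 1.23e-06). Acod1 fell in both, by 0.99 with FcMR and by 2.03 with isotype. On the rising side, C3ar1 rose less with FcMR (0.64 against 1.68, difference -1.04), and C5ar1 (difference -1.45), Ctsl (-1.20), Spp1 (-1.40), Itga6 (-1.27) and Fcgr4 (-1.22) were not called in FcMR cells. Fcgr1 fell with FcMR, from 106 to 79.6 CPM (log2 -0.42 against 0.68, difference -1.10). Ctsl was at 663 and 737 CPM and Spp1 at 1430 and 1420 CPM. Tnf differed the other way, with a steeper fall from its higher level in FcMR cells, 485 to 67.8 CPM (log2 -2.84 against -1.65, adjusted p = 0.000259). The changes also start from different 12 h levels, for example 1190 CPM in isotype and 4130 CPM in FcMR cells for Clec4e, and 105 and 30.9 CPM for C3ar1.

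**Figure D5:**
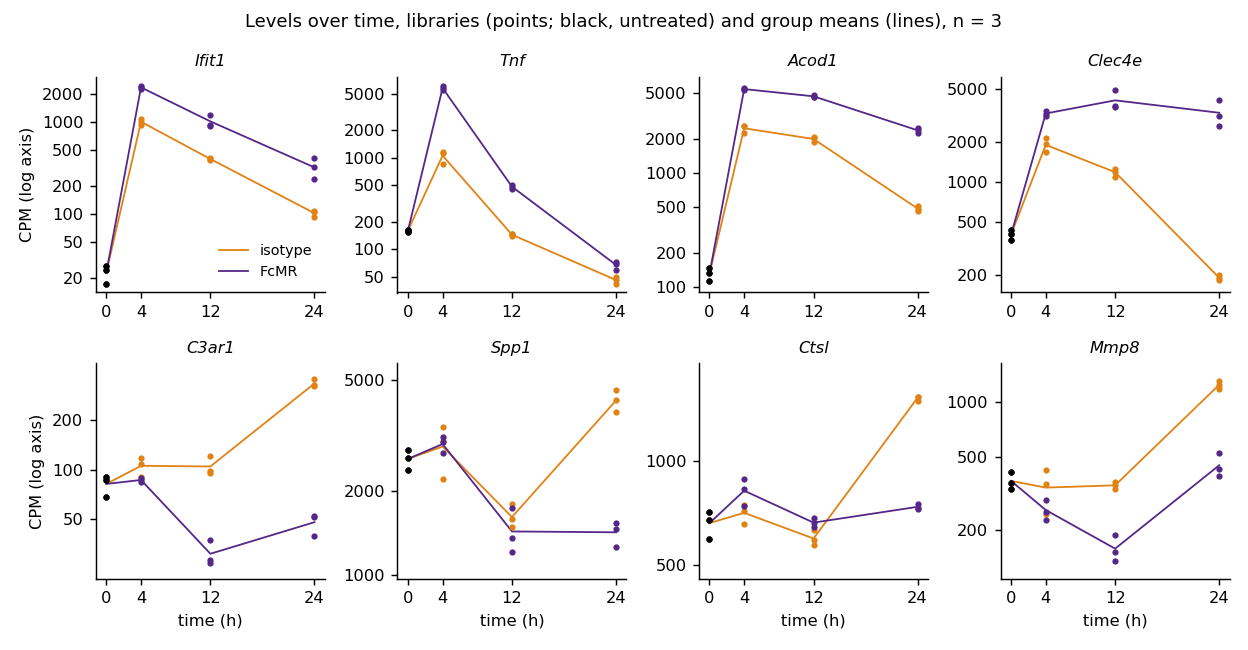
Levels of 8 genes (CPM, log axes) in untreated cells at 0 h (black) and over time in isotype (orange) and FcMR (purple) cells, with points for libraries and lines through group means of 3. From 12 h to 24 h Ifit1 falls in both, Clec4e falls in isotype cells from about 1190 to 191 CPM while all FcMR points of both times lie above 2000 CPM, and C3ar1, Spp1 and Ctsl rise in isotype cells.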

How the data were processed

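RNA from 21 libraries was sequenced as 75 bp single-end reads from an unstranded kit, per the labels' protocols. The authors used CASAVA 1.8.2, kallisto 0.44.0 and DESeq2 with builds mm10 and GRCm38, per the submitters' processing notes; the annotation is not given in the sources used here. The deposited raw table holds whole numbers, used here as estimated counts that the authors had already rounded (smallest sum over libraries 10). The deposited normalized table holds linear signal values, raw values divided by size factors, and served only in an alternative with limma.

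All 21 libraries were fitted together by edgeR 4.0.16 (R 4.3.3) with TMM factors, filterByExpr (minimum count 10), a quasi-likelihood test of isotype 24 h against 12 h, and Benjamini-Hochberg adjustment over 13468 genes at 0.05. The difference of the FcMR and isotype changes was a contrast of the same fit. Values per library are CPM after TMM scaling. Tests were checked on simulated counts. Alternatives were DESeq2 1.42.0, limma 3.58.1 on log2(value + 1), other factors, filters and sample sets, a replicate block, thinning, leaving out each library, and a GC offset (lowess, span 0.3). Symbols and positions come from GENCODE M21 (23206 of 23250 genes had a symbol), promoters from RefSeq. A count of 3 was taken as the floor; intervals and floors cover counting error only.

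Genes named are the 12 largest changes in each direction (called, protein-coding, mean log2 CPM of at least 1, groups not overlapping), the 4 smallest p-values in each direction, up to 4 called members of each of 24 lists and 14 fixed genes. Results for some genes are not reported here. Other list and marker members were chosen after their values were seen. The members and lists were chosen with earlier results of these data known.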

Additional observations from a re-analysis of the deposited data

Results flagged for a closer look

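The 12 h to 24 h change differed between FcMR and isotype cells for 56 of the named or listed genes reported here. Of the named or listed genes 589 were tested, and 233 (1.73%) of all 13468 genes tested differed. The test was the contrast of the 2 changes in edgeR's quasi-likelihood fit, with adjustment over all genes tested. Some of these genes were named for a large isotype change, which the difference subtracts. The counts by direction below therefore follow in part from that choice. Differences below are FcMR minus isotype, on the log2 scale. Groups of 3 libraries are too small for a search for single deviating samples.

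In 23 genes the isotype estimate was negative and the FcMR change was less negative or positive. They were Slc1a2 (3.29), Cbln1 (2.99), Clec4e (2.32), Phgdh (2.04), Acsl1 (1.75), Egr1 (1.58), Ptges (1.57), Gbp2 (1.38), Slc7a2 (1.15), Olr1 (1.14), Fpr2 (1.06), Acod1 (1.04), Sod2 (1.03), Cfb (0.92), C3 (0.90), Klf4 (0.85), Me1 (0.82), Tlr2 (0.72), Ass1 (0.71), Ccl22 (0.68), Ccrl2 (0.53), Bhlhe40 (0.51) and Ptafr (0.39). For 7 genes with a negative isotype estimate the FcMR change was more negative. These were the chemokine genes Ccl2 (-1.72), Ccl3 (-1.63) and Ccl4 (-1.29), together with Fn1 (-1.43), Tnf (-1.19), Icosl (-0.54) and Tnfaip3 (-0.51).

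In 15 genes the isotype estimate was positive and the FcMR change was lower, namely Ccl7 (-2.42), Gm5150 (-1.97), Mmp13 (-1.79), C5ar1 (-1.45), Spp1 (-1.40), F13a1 (-1.27), Itga6 (-1.27), Fcgr4 (-1.22), Ctsl (-1.20), Fcgr1 (-1.10), C3ar1 (-1.04), Plau (-0.71), Mamdc2 (-0.52), Lyn (-0.52) and Mertk (-0.48). The other 11, with a positive isotype estimate and a higher FcMR change, were Vegfa (1.77), Cx3cr1 (1.21), Fos (1.0), Abca1 (0.99), Cxcr4 (0.91), Mgst2 (0.84), Ly6a (0.77), Scd1 (0.77), Thbs1 (0.72), Ptgs1 (0.66) and Lta4h (0.37). Some isotype estimates behind this sorting were near 0, so their sign carries little weight. Examples are the isotype changes of Cx3cr1 (0.02), Abca1 (0.07), Mmp13 (0.01), Ccl2 (-0.01), Bhlhe40 (-0.1) and Fn1 (-0.16).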

How the results depend on the processing

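Of the 589 tested genes that were named or listed, 506 kept direction and call under GC correction, 557 under RLE factors, 555 in DESeq2 and 536 on thinned counts. Against 2247 genes called, GC correction gave 3396, a fit of the 6 libraries alone 5794, and a fold threshold of 1.5 gave 1434. Leaving out 1 library at a time gave 1401 to 1675 genes, with 34 to 63 of the 589 genes losing their call. For the difference between the FcMR and isotype changes (233 genes), DESeq2 gave 359, GC correction 620, no expression filter 154, thinned counts 129 and limma on the normalized values 138, and leaving out 1 isotype library 156 to 183.

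Samples with the same replicate number did not meet the criterion for pairing: their deviations from the group means correlated at 0.0713, 0.0772 and 0.0855 in isotype cells and at -0.0371, -0.355 and 0.442 in FcMR cells. Every isotype library correlated best with its own number, which is a hint from the data and not from the design. With the replicate block, 2438 genes were called (6150 in the fit of the 6 libraries alone) and 285 for the difference. The replicate block with GC correction, chosen after seeing the data, gave 3580 and 710.

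GC correction reversed the sign of Cebpb (0.18), Ctsa (0.17), Pmvk (0.36) and C1qa (0.46). The replicate block with GC correction reversed Cebpb (0.13), Ctsa (0.17), Pmvk (0.35), C1qa (0.46), Tecr (0.32), Stab1 (0.29) and Eno1 (0.24). The cause of these shifts was not tested. The shallowest 12 h library limits levels under 0.449 CPM.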
